A study of Caenorhabditis remanei with 48 samples.

Results

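A set of 51 gene models of the nematode Caenorhabditis remanei, out of 24723 models counted, was followed through 48 RNA-seq libraries of newly hatched larvae. The models were chosen by the place written in their names: 30 lay on scaffold 225 and 21 in bin 6 of linkage group 3, each with at least 10 counts summed over all libraries. The set had been picked out because several of its genes stood higher in larvae kept in the heat, and the larval temperature contrasts with parents at 20 °C therefore describe the choice and test nothing. In those contrasts 6 members, all on scaffold 225, passed the threshold as higher at 30 °C in all 3 populations (5.51% of all tested genes did), and 27 of the 38 members with enough counts to test had a fold change above 0 in all 3. On linkage group 3 no member passed in all 3, though 10 of 15 had a fold change above 0 in all 3. The counts of fold changes above 0 are given without the share of all genes. There 8 of the 15 tested members had their highest levels in the same 2 ancestor libraries, against 2.85% of all tested genes. Some of these 8 had enough counts to test only through those 2 libraries, so the share is given as a description.

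Caenorhabditis remanei is a male-female relative of C. elegans, and its outcrossing populations keep standing genetic variation on which experimental selection can act. Larvae that hatch without food stop in the first larval stage (L1), so that embryos of a single bleaching yield large numbers of animals at the same stage. In nematodes, neighbouring genes are often tandem duplicates or members of operons, and neighbours can therefore share regulation or share reads. Heat above the growth range calls up chaperones and changes the transcription of many other genes in this phylum.

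The libraries came from the ancestral population, strain PX443, and from 2 populations derived from it, 1 labelled control-selected and 1 labelled heat-selected. Worms were kept on E. coli OP50 at 20 °C, parents were raised at 20 or 30 °C, and their bleached embryos were held without food for 20 h at 20 or 30 °C. Each library was polyA RNA from a pool of about 100000 filtered L1 larvae, a whole-animal sample in which fewer cells of a type and less RNA per cell cannot be told apart. There were 6 libraries for each larval temperature and population with parents at 20 °C, and 2 with parents at 30 °C, in batches labelled A and B (ancestor), C and D (control-selected) and E and F (heat-selected). With unheated parents the ancestor had 2 A and 4 B libraries at 20 °C, but 4 A and 2 B at 30 °C. Those numbered 5 and 6 were labelled B at 20 °C and A at 30 °C, so batch was not balanced over larval temperature. The labels were used as given, and 1 alternative set ancestor batches by replicate number. Each selected population is 1 population, so selection and the history of that population cannot be told apart. The labels do not say whether libraries of a group came from separate cultures, and the p-values measure the spread between these libraries.

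The libraries held 1986767 to 12717722 counts in genes. Between 31.3% and 72.8% of the reads of a library were assigned to a gene model. In 4 libraries over 35% of the reads aligned outside the gene models: 1 ancestor library with both generations at 30 °C, 1 heat-selected library from heated parents at 20 °C and 2 heat-selected libraries from unheated parents at 20 °C. Values below are counts scaled to a common library size (CPM) after TMM normalization in edgeR, and they were not corrected for gene length, so levels are compared between libraries and not between genes.

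The name rule found 67 models, of which 16 had fewer than 10 counts, 12 of them none. Just inside the threshold were CRE_PX356_5785 with 10 counts and CRE_PX356_5784 with 14, and just outside were CRE30053 with 6 and CRE_PX356_4173 with 2. No model of scaffold 225 lay outside the rule. Of the 51 members, 38 passed the filter on low counts, 23 on scaffold 225 and 15 on linkage group 3. The other 13 held 10 to 186 counts in all 48 libraries together and reached at most 2.53 CPM.

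The members were not neighbours throughout. Of the scaffold 225 members, 25 of 30 could be matched by locus tag to the RefSeq annotation of another strain's assembly (PX506), where they fell in 1 run of 50 consecutive genes on 1 chromosome. Of the 50 genes in that run 28 matched the name rule, so other genes lay between members. The matched members of the CRE01 series lay within the first 28 places, and those of the CRE30 series began at place 29. Of the linkage group 3 members, 11 of 21 could be matched, in a run of 57 genes on a different chromosome, of which 12 matched the rule. In that assembly the 2 blocks are therefore not next to each other, although both hold CRE01 numbers: 16 of the 30 scaffold 225 members and 10 of the 21 linkage group 3 members. CRE01312, CRE01257 and CRE01311 were consecutive there, as were CRE01275 and CRE01274. The files and the RefSeq table give the members no gene names, and no function is assigned to them here.

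CRE01242 separated the larval temperatures most cleanly. With unheated parents its lowest, median and highest levels in the ancestor were 137, 153 and 228 CPM at 20 °C and 269, 274 and 447 CPM at 30 °C. In the control-selected population they were 109, 154 and 203 CPM against 226, 353 and 444 CPM, and in the heat-selected population 130, 168 and 184 CPM against 202, 249 and 417 CPM. Every library at 30 °C lay above every library at 20 °C in all 3 populations, and the log2 fold changes were 0.89 ± 0.17 (SE), 1.15 ± 0.16 and 0.86 ± 0.16.

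CRE01220 had the same order with smaller differences. Its ancestor libraries read 22.4, 32.4 and 37.1 CPM (lowest, median, highest) at 20 °C and 47.5, 52.0 and 55.5 CPM at 30 °C, with no overlap. In the control-selected population they read 22.5, 28.9 and 31.9 CPM against 34.97, 51.2 and 62.0 CPM. Heat-selected libraries read 27.4, 34.3 and 38.8 CPM against 38.8, 49.1 and 60.3 CPM, where the ranges overlapped narrowly. CRE01212 overlapped in every population: in the ancestor 65.7, 122 and 185 CPM stood against 172, 219 and 360 CPM, a log2 fold change of 1.25 ± 0.21. CRE01217, CRE01218 and CRE01238 completed the 6 members called higher in each population, with log2 fold changes of 0.97, 0.73 and 0.74 in the ancestor.

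**Figure D1:**
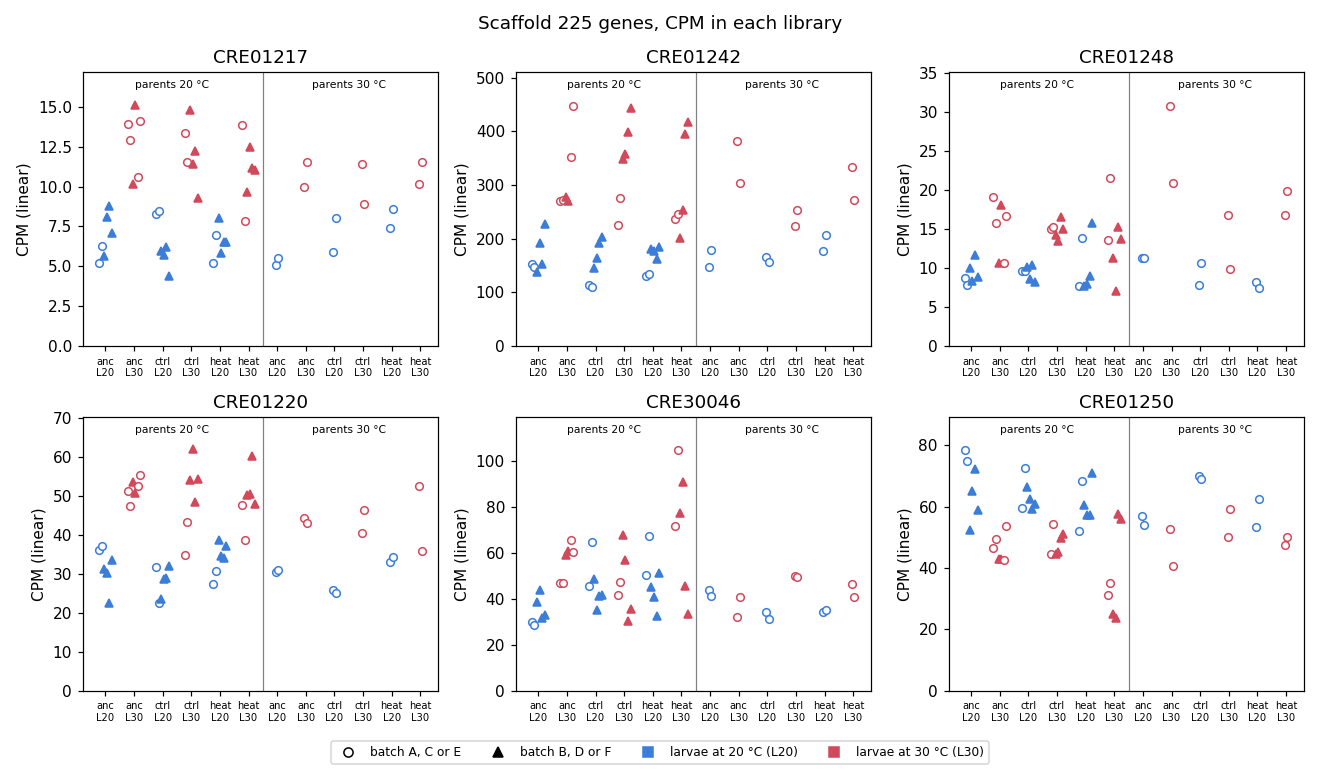
Levels of scaffold 225 members in each library (CPM, linear vertical axis; 1 point per library), by population and larval temperature (L20 and L30 for 20 and 30 °C), with heated parents right of the line. Triangles mark batches B, D and F. For CRE01242, with unheated parents, the ancestor libraries lie between 137 and 228 CPM at 20 °C and between 269 and 447 CPM at 30 °C.

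Across all tested members, the quasi-likelihood test of edgeR, adjusted by Benjamini-Hochberg over 13460 genes, called 25 higher and 2 lower at 30 °C in the ancestor. Of all tested genes, 21.2% were called higher and 17.9% lower. In the control-selected population 10 members were called higher and none lower (12.2% and 11.2% of all genes), and in the heat-selected population 10 higher and 1 lower (10.7% and 11.6%). These counts restate the choice of the members. Without the third ancestor library at 30 °C the ancestor count of 27 was 16, and with replicates summed in pairs the counts were 11, 3 and 1. Scaled to total counts in genes, which put the median log2 fold change of all genes at -0.27, 0.05 and -0.16, the calls were 15 higher and 2 lower, 7 and 0, and 5 and 2. With TMM scaling all calls in the selected populations were on scaffold 225, and with total counts 1 lower call in the heat-selected population was on linkage group 3. On scaffold 225 with TMM scaling the median log2 fold changes were 0.66 (ancestor), 0.31 (control-selected) and 0.55 (heat-selected). The median over all tested genes was 0.02 in each. On linkage group 3 the medians were 1.61, 0.57 and 0.38, with 11 members called higher in the ancestor.

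The lower members were CRE01250 and CRE30051. CRE01250 read 52.6, 68.8 and 78.5 CPM (lowest, median, highest) in the ancestor at 20 °C and 42.7, 44.8 and 53.7 CPM at 30 °C, a log2 fold change of -0.61 ± 0.16. In the heat-selected population its log2 fold change was -0.67 ± 0.15, and there 4 libraries of larvae at 30 °C lay between 23.5 and 35.02 CPM while the other 2 lay at 56.0 and 57.8 CPM, within the range at 20 °C. CRE_PX356_241 and CRE_PX356_4174, which with CRE01250 had the lowest mean fold changes, passed the threshold in no population. The 2 most heavily counted members, CRE01239 and CRE30047, had log2 fold changes of 0.73 ± 0.29 and 0.43 ± 0.23 in the ancestor, the first past the threshold and the second not. The call of CRE01239 was kept in 8 of 24 alternatives.

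In the ancestor 6 members had every library at 30 °C above every library at 20 °C, against 3.99% of all tested genes. In the control-selected population 5 did, against 3.80%, and in the heat-selected population 2 did, against 2.93%. All were on scaffold 225, and 1 control-selected member, CRE01250, lay wholly lower, against 4.44% of all genes. The number of linkage group 3 members that separated in this way was 0 in each population.

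**Figure D2:**
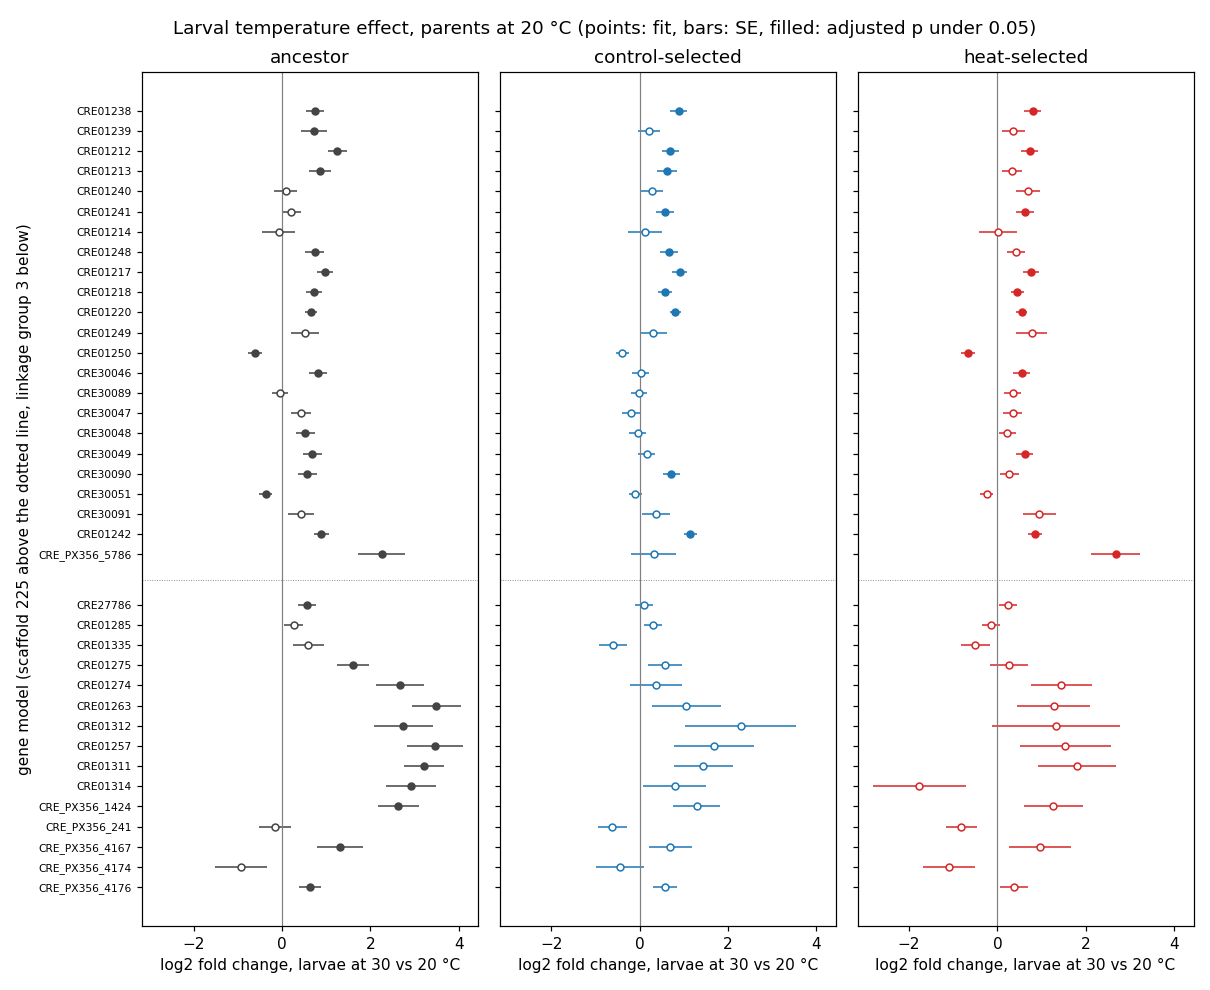
Log2 fold change of each tested member, larvae at 30 against 20 °C with parents at 20 °C, in the 3 populations (points are fitted values, bars are SE, filled points have adjusted p under 0.05). Scaffold 225 members have medians of 0.66, 0.31 and 0.55, and linkage group 3 members reach 3.49 in the ancestor.

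Within the ancestor, 8 of the 15 tested linkage group 3 members were high in the larvae at 30 °C of batch B and low in those of batch A. Of the other 7, CRE_PX356_4174 was lower in both batch B libraries and 6 overlapped between batches. CRE01311 read 15.1 and 19.2 CPM in the 2 batch B libraries, and 1.33, 1.08, 0.905 and 1.59 CPM in the 4 batch A libraries. At 20 °C it read 0.247 and 0.261 CPM in the 2 batch A libraries, on 2 and 3 counts, and 1.09 to 1.88 CPM in batch B. The batch A libraries at 30 °C thus lay above those of batch A at 20 °C, but within the range of both batches pooled. Its fitted log2 fold change of 3.22 ± 0.45 thus averaged 2 high and 4 low libraries.

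Other genes of the block had the same 2 libraries on top. CRE01274 read 12.6 and 28.6 CPM in batch B against 0.293 to 1.59 CPM in batch A, and CRE01275 20.7 and 22.3 CPM against 0.391 to 3.18 CPM. CRE01263 read 7.22 and 15.1 CPM against 0.586 to 2.04 CPM. CRE01257 rested on 39 and 40 counts in the batch B libraries, 6.40 and 9.02 CPM, and on 0 counts in 2 of the batch A libraries. For CRE01312, 25 and 29 counts gave 4.76 and 5.64 CPM, and the highest of the other 46 libraries was 0.735 CPM.

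In all, 8 of the 15 tested linkage group 3 members had both of these libraries above every one of the other 46, against 2.85% of all tested genes. They were CRE01312, CRE01257, CRE01314, CRE01263, CRE01275, CRE01274, CRE_PX356_1424 and CRE01311. None of the 23 scaffold 225 members did. The same order held for 4 of the 17 tested models in the bins on either side (bins 5 and 7) of linkage group 3. This comparison was made after the values were seen, and gives a description. Without the 2 batch B libraries at 30 °C, 10 linkage group 3 members passed the filter on low counts. Some of the 8, CRE01311 and CRE01314 among them, were thus tested only through the libraries where they were high. Nothing is read from 8 of 15 beside the share of all genes.

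The 2 batch B libraries also had more unaligned reads than batch A of the same group. Of their reads 37.5% and 30.9% were not aligned, against 11.3% to 21.9% in the 4 batch A libraries. Such shares were not particular to these 2 libraries. With unheated parents, the fourth control-selected library at 30 °C had 36.9% of its reads not aligned, and the fifth at 20 °C had 33.5%. By their choice the 8 genes read lower in all other 46 libraries, so nothing is read from their lower levels there. Among those 46, the fourth control-selected library at 30 °C was the highest for CRE01257, CRE01314 and CRE01311 (1.56, 1.82 and 2.07 CPM). For the rest of the 8 another library was the highest. With unheated parents, the sixth ancestor library at 20 °C, of batch B, had the largest share of reads not aligned in its group. Within that group it was the highest for CRE01257, CRE01314, CRE01263, CRE01275, CRE_PX356_1424 and CRE01311. For CRE01312 and CRE01274 the third library of the group, also of batch B, was the highest. The part of unaligned reads in the result was not tested. Within batch A the 10 linkage group 3 members that passed the filter had a median log2 fold change of 0.76 with 0 called, and within batch B 13 members had a median of 3.07 with 9 called higher. Over the same split the scaffold 225 medians were 0.79 in batch A and 0.38 in batch B, with 8 higher and 1 lower, and 5 higher. Without the batch B libraries of larvae at 30 °C, 1 linkage group 3 member was called higher, and on scaffold 225 12 were called higher and 1 lower. These fits differ in their libraries, and on linkage group 3 in the members that passed the filter. Their medians and counts are given without the share of all genes, and nothing is read from the differences between them.

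Of these 8 genes, 3 also lay above batch A in batch B at 20 °C and at least 4-fold higher in the mean, at lower levels: CRE_PX356_1424, CRE01263 and CRE01311. CRE01275 lay above by less than 4-fold, at 2.34 to 6.26 CPM against 1.04 and 1.60 CPM. CRE_PX356_1424 read 0.494 and 0.261 CPM in batch A and 0.976 to 2.71 CPM in batch B, and CRE01263 had no counts in the 2 batch A libraries and 0.585 to 1.88 CPM in batch B. CRE01335 and CRE_PX356_241, which are not among the 8, were also higher in batch B at 20 °C, and CRE01335 read 11.1 and 12.6 CPM against 29.3 to 74.1 CPM. In total 6 of 15 linkage group 3 members lay above batch A, against 27.0% of all genes. Of the 15, 5 were also at least 4-fold higher in the mean, against 4.17% of all genes. In larvae at 30 °C the 4-fold criterion held for 5 of the 17 tested models of bins 5 and 7. Of the linkage group 3 members it held there for 8 of 15, against 2.56% of all genes, and in neither temperature for any scaffold 225 member. These 8 are the genes named above, some of them tested only through these libraries, so this too is a description.

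With unheated parents the highest CRE01311 level was 2.07 CPM among control-selected and 1.47 CPM among heat-selected libraries. For CRE_PX356_1424 the control-selected larvae at 30 °C read 0.534 and 0.462 CPM in batch C and 2.29 to 6.04 CPM in batch D, an order of batches like that of the ancestor. By the 4-fold criterion 2 of 15 linkage group 3 members stood higher in batch D (3.02% of all genes), and 0 of 15 in batch F of the heat-selected larvae at 30 °C (1.43%).

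**Figure D3:**
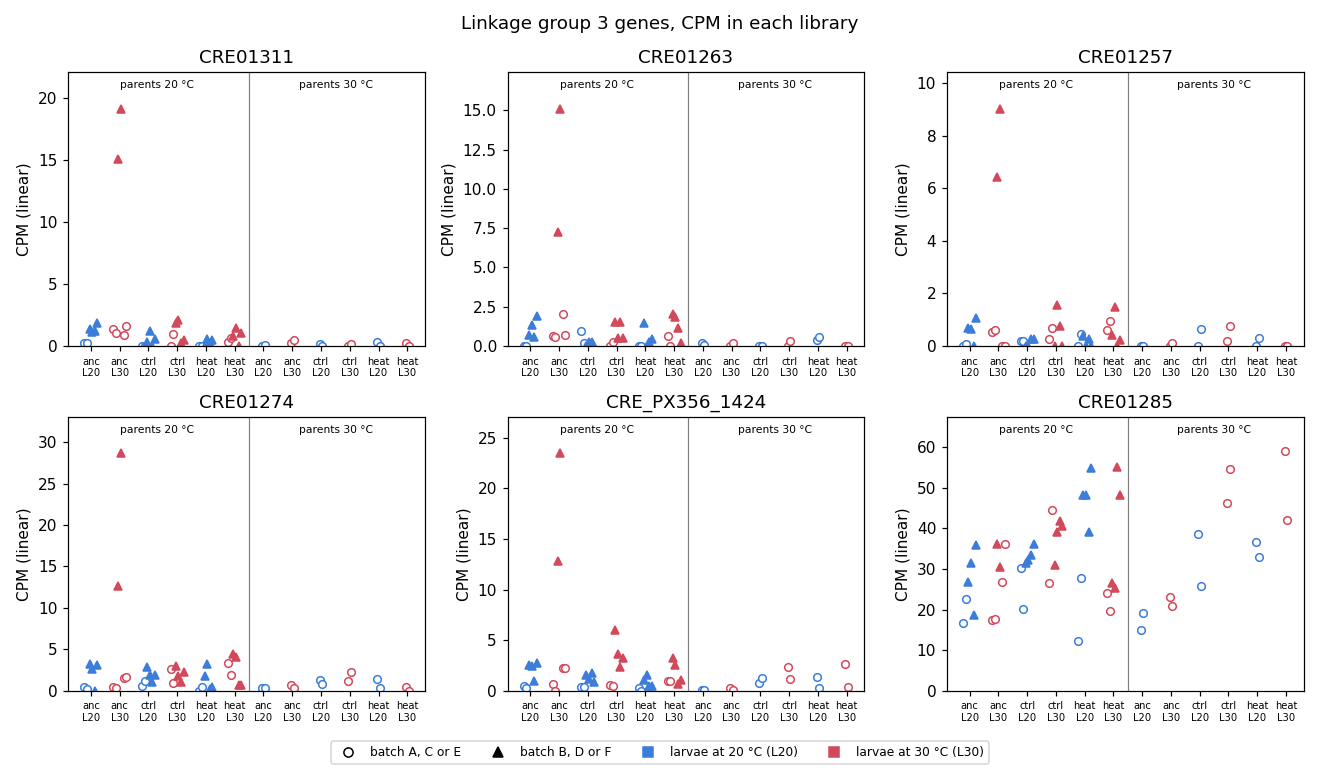
Levels of linkage group 3 members in each library (CPM, linear vertical axis; 1 point per library), by population and larval temperature, with heated parents right of the line and triangles for batches B, D and F. For CRE01311 the 2 ancestor batch B libraries at 30 °C stand at 15.1 and 19.2 CPM, and all other libraries at or below 2.07 CPM.

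Populations were compared at 30 °C without a batch term, since each batch holds 1 population, and batch and population cannot be told apart. CRE01311 and CRE01314 were called lower than in the ancestor, but both passed the filter on low counts only through the 2 ancestor batch B libraries, so these values are a description and no test is read from them. The log2 fold change of CRE01311 was -3.19 ± 0.77 for heat-selected and -2.79 ± 0.73 for control-selected larvae. For CRE01314, named after its values were seen, it was -4.30 ± 1.12 for heat-selected larvae. Its ancestor libraries read 0.718, 0.0977, 7.06, 12.4, 0.452 and 0 CPM, and its heat-selected libraries 0.804 CPM in 1, 0.228 CPM in another and 0 in the rest.

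No other member was called in these comparisons, which share the ancestor libraries. The calls amount to 2 of 38 lower for heat-selected against ancestor (0.557% of all genes lower) and 1 of 38 for control-selected against ancestor (0.438%), and nothing is read from these counts. Without the 2 batch B libraries neither gene passed the filter, and 0 linkage group 3 members were called. The calls were also lost with replicates summed in pairs, and without single heat-selected or control-selected libraries, for CRE01311 in 8 cases and for CRE01314 in 5.

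Heat-selected against control-selected larvae at 30 °C gave 0 calls among members in edgeR's quasi-likelihood test and in DESeq2 (1.41% of all genes in edgeR), with 3 at an unadjusted p under 0.05. At 20 °C the 3 population comparisons also gave 0 in both tools. At that level stood 6 members for heat-selected against ancestor (0.788% of all genes called), 3 for control-selected against ancestor (0.223%) and 1 for heat-selected against control-selected (0.617%). Nor did the larval effect differ between populations for any member past the threshold in edgeR's quasi-likelihood test (0.453%, 0.869% and 0.223% of all genes called, in the order below). Of 38 members, 3 (heat-selected against ancestor), 8 (control-selected against ancestor) and 1 (heat-selected against control-selected) had an unadjusted p under 0.05, and DESeq2 called 1, 0 and 0. A higher call in 1 population and not in another is thus not shown to be a difference between them.

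The libraries from heated parents entered the rule through the summed count, and the sources used here do not say whether their larval contrast also played a part in the choice. They hold 2 libraries at each temperature, and their tests are given with that limit. In the ancestor, CRE01242 read 147 and 178 CPM at 20 °C and 381 and 304 CPM at 30 °C. It rose by 1.07 ± 0.27 on the log2 scale (adjusted p = 0.00756, edgeR's quasi-likelihood test). CRE01217 read 5.07 and 5.504 CPM against 9.96 and 11.5 CPM, and rose by 1.03 ± 0.28 (adjusted p = 0.0135, edgeR's quasi-likelihood test).

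CRE01248 read 11.2 CPM in both libraries at 20 °C, and 30.8 and 20.9 CPM at 30 °C. It rose by 1.19 ± 0.32 on the log2 scale (adjusted p = 0.0134, edgeR's quasi-likelihood test). These 3 of 38 members were higher, and 0 lower, in the ancestor, against 5.10% of all genes higher.

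The first ancestor library at 30 °C from heated parents had 41.1% of its reads outside the gene models. When the 4 libraries above 35% were left out, a choice made after seeing the data, none of the 3 calls held (adjusted p = 0.218 for CRE01242, 0.099 for CRE01217 and 0.301 for CRE01248, edgeR's quasi-likelihood test). A single library then remained at 30 °C, whose spread was taken from the other groups. The call of CRE01242 was also lost without the first library at 20 °C or without the first at 30 °C, CRE01248 without either library at 20 °C or without the first at 30 °C, and CRE01217 without any 1 of the 4.

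In the control-selected population CRE01220 read 25.9 and 25.1 CPM against 40.6 and 46.5 CPM and rose by 0.77 ± 0.22 (adjusted p = 0.0464, edgeR's quasi-likelihood test). It was the 1 member called of 38, against 0.669% of all genes higher. In the heat-selected population CRE_PX356_4176, on linkage group 3, read 3.43 and 4.01 CPM against 11.5 and 11.2 CPM and rose by 1.62 ± 0.44 (adjusted p = 0.0383, edgeR's quasi-likelihood test), where 0.639% of all genes were higher. Both calls were lost without any 1 of their 4 libraries, and without the libraries above 35% outside genes (adjusted p = 0.102 and 0.202, edgeR's quasi-likelihood test).

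Most members had a positive fold change from heated parents without passing the threshold. A fold change above 0 was seen for 27, 33 and 22 of the 38 in the ancestor, control-selected and heat-selected populations, given without the share of all genes. On scaffold 225 the median log2 fold changes were 0.45, 0.47 and 0.40, while the median over all genes was 0.03, 0.03 and 0.02. On linkage group 3 they were 0.57, 0.64 and -0.08.

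With 2 libraries against 2, all libraries at 30 °C lay above those at 20 °C for 20 members in the ancestor (30.7% of all genes), 20 among control-selected (26.6%) and 14 among heat-selected libraries (19.6%). All libraries at 30 °C lay below those at 20 °C for 4 members in the ancestor (29.4%), 3 among control-selected (25.4%) and 7 among heat-selected libraries (21.2%). CRE01242 was among the higher members in all 3. CRE01238 was likewise higher in each library at 30 °C in all 3 populations, reading 6.78 and 9.30 CPM against 17.3 and 12.9 CPM in the control-selected. Its log2 fold changes were 0.55 ± 0.31, 0.91 ± 0.32 and 0.95 ± 0.32, none past the threshold.

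In the ancestor libraries from heated parents, which are all of batch A, 7 of the 8 linkage group 3 genes that were high in batch B read at most 0.664 CPM. CRE01275 read 1.01 and 1.11 CPM at 20 °C and 1.55 and 0.838 CPM at 30 °C, within its range in batch A with unheated parents. CRE01311 read 0 and 0.0655 CPM at 20 °C and 0.221 and 0.466 CPM at 30 °C. CRE_PX356_1424 read 0.0922 and 0.0655 CPM, and 0.221 and 0.0931 CPM.

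**Figure D4:**
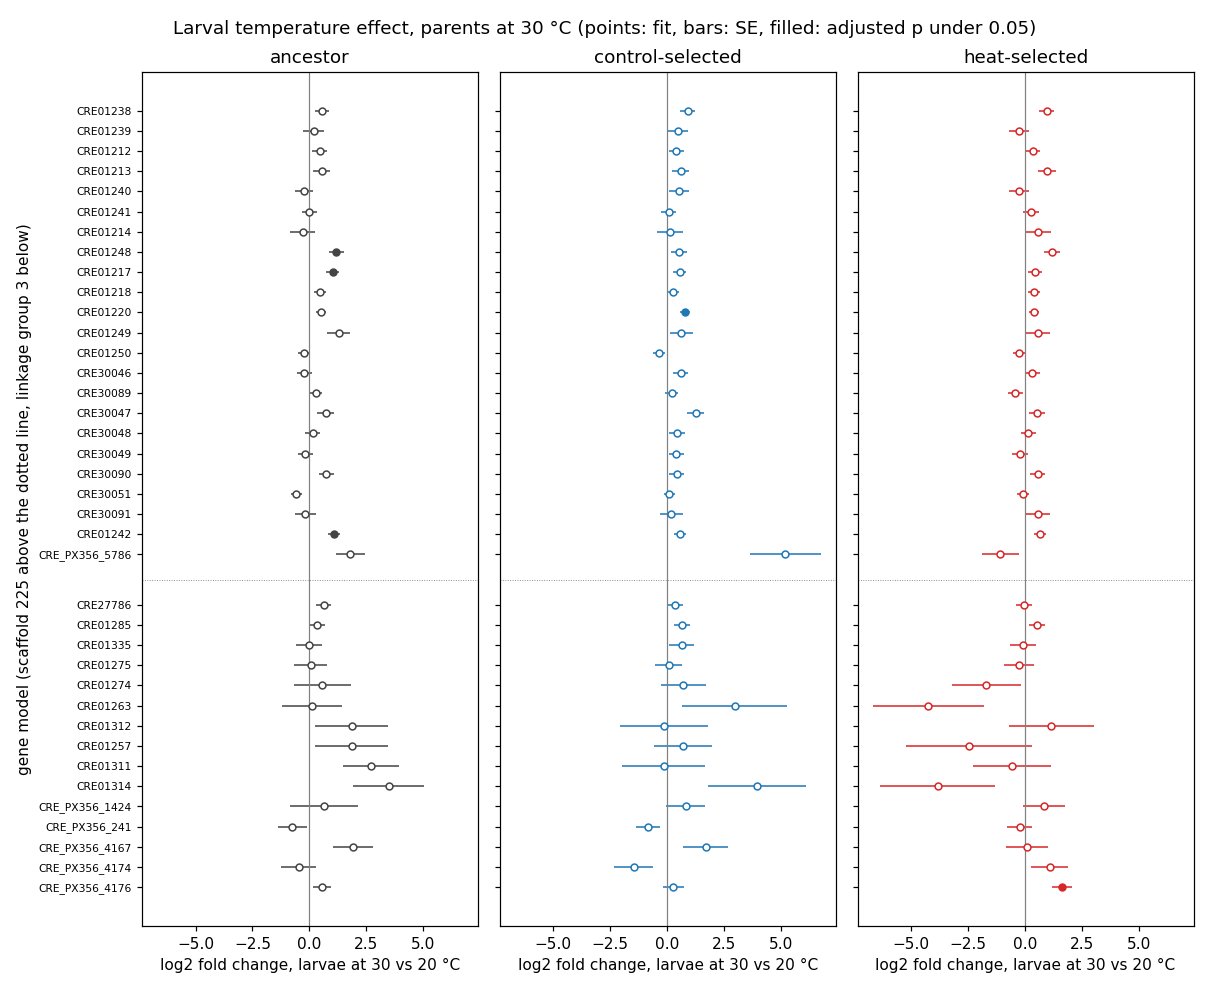
Log2 fold change of each tested member, larvae at 30 against 20 °C with parents at 30 °C, in the 3 populations (points are fitted values, bars are SE, filled points have adjusted p under 0.05). The 3 filled ancestor points are CRE01248, CRE01217 and CRE01242, and the wide bars on linkage group 3 belong to genes with few counts.

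Few members were called for parental temperature. In the heat-selected population CRE01285, on linkage group 3, read 12.2 and 27.7 CPM (larvae at 20 °C) and 24.1 and 19.7 CPM (larvae at 30 °C) in batch E with unheated parents. With heated parents, in the same batch, it read 36.7 and 33.0 CPM, and 59.1 and 42.0 CPM. No batch E library from heated parents was below one from unheated parents, and the gene rose by 1.02 ± 0.26 on the log2 scale (adjusted p = 0.0128, edgeR's quasi-likelihood test). In batch F with unheated parents it read between 25.4 and 55.1 CPM, so that the ranges overlap when batches are pooled, and without a batch term the adjusted p was 0.669 (edgeR's quasi-likelihood test).

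CRE30046, on scaffold 225, went the other way in that population. It read 50.3, 67.2, 71.4 and 104 CPM in batch E with unheated parents and 34.3, 35.3, 46.5 and 40.5 CPM with heated parents, without overlap. It fell by 0.88 ± 0.23 on the log2 scale (adjusted p = 0.0154, edgeR's quasi-likelihood test). In the ancestor the order differed between larval temperatures. At 20 °C larvae of heated parents read 43.8 and 41.3 CPM, above the 2 batch A libraries from unheated parents (29.6 and 28.4 CPM). At 30 °C they read 31.9 and 40.9 CPM, below every library from unheated parents (46.8 to 65.4 CPM). Neither the parental effect on CRE30046 nor its difference between larval temperatures passed the threshold in the ancestor (edgeR's quasi-likelihood test).

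Without a batch term the adjusted p of CRE30046 was 0.128, and without the libraries above 35% outside genes 0.066 (edgeR's quasi-likelihood test). These 2 members were 1 higher and 1 lower of 38, against 2.77% of all genes in each direction. CRE01285 was not called when any 1 of 3 libraries was left out, the first library from unheated parents at 20 °C or the first from heated parents at either temperature, and CRE30046 when any 1 of 4 was, the second unheated-parent library at 30 °C, either heated-parent library at 20 °C or the second at 30 °C.

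In the ancestor CRE_PX356_5786, a scaffold 225 model with few counts, was read in batch A with unheated parents at both larval temperatures. It read 0.247 and 0.174 CPM at 20 °C, and 0.410, 0.782, 1.13 and 0.910 CPM at 30 °C. With heated parents it read 0.737 and 0.721 CPM at 20 °C, and 2.43 and 2.70 CPM at 30 °C. It rose by 1.87 ± 0.48 (adjusted p = 0.0171, edgeR's quasi-likelihood test), the 1 member called, against 2.97% of all genes higher. DESeq2 called 4 members, and the fit without a batch term 16. These counts are given without the share of all genes in the same fits, and nothing is read from them. Without either heated-parent library at 20 °C, or without the second at 30 °C, CRE_PX356_5786 was not called.

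In the control-selected population 0 members were called for parental temperature, where 21 of all 13460 genes passed edgeR's quasi-likelihood test (0.156%), and 4 members had an unadjusted p under 0.05. DESeq2 also called 0 of them. For the parental by larval interaction 0 members passed in any population in either tool (1.60%, 0.178% and 0.542% of all genes), with 3, 2 and 6 at an unadjusted p under 0.05 in the ancestor, control-selected and heat-selected populations. All calls from heated-parent libraries, for larval or parental temperature, were lost when replicates were summed in pairs, which leaves 1 library a group.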

How the data were processed

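The authors deposited 1 file of raw read counts per gene model for each library, made with GSNAP and HTSeq, as the submitters' processing notes list. Build, HTSeq version and strand setting are not given in the sources used here, so reads of overlapping or duplicated neighbours cannot be assigned beyond what the counts show. HTSeq's classes outside genes (no feature, ambiguous, low alignment quality, not aligned, not unique) were kept out of library sizes and tests: not aligned reads were 9.77% to 37.5% and reads without a feature 8.03% to 47.1%.

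From the counts, 13460 models passed edgeR's filter (4.0.16 in R 4.3.3, minimum count 10). All 48 libraries entered 1 quasi-likelihood fit over 12 groups with batch as a term. Population differences had no batch term. P-values were adjusted by Benjamini-Hochberg over all tested genes at a threshold of 0.05, and SE is the log2 fold change divided by the square root of F. The procedure was tested on simulated data. No 2 libraries of a group agreed within sampling noise; the closest pair had a chi-square of 2.65 per gene. Counting intervals would cover counting error only.

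The members, lists and comparisons were chosen with earlier results of these data known. Members were named by fold change (the 8 highest and 3 lowest in mean over the contrasts with unheated parents), by a call elsewhere at a mean log2 CPM of at least 1, by level (the 3 highest) and by nearness to the count threshold. Alternatives were DESeq2 (1.42.0) as test or scaling, total-count scaling, no filter, other batch terms, single batches, paired sums and left-out libraries. Promoter sequences were not analysed here.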

Additional observations from a re-analysis of the deposited data

Results flagged for a closer look

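Among 126 groups of 6 libraries (21 named or called genes, parents at 20 °C), 8 held a library whose gap to its nearest neighbour, over the group's range, passed Dixon's 95% critical value of 0.625. Chance alone gives about 1 in 20 such groups. Most rest on very few counts. CRE01263 reached 0.965 CPM (5 counts) in the first control-selected library at 20 °C and 1.47 CPM (4 counts) in the third heat-selected library at 20 °C. CRE01312 was counted once in its group in the fourth control-selected library at 20 °C (0.238 CPM) and in the second heat-selected library at 20 °C (0.433 CPM), and was 0 in the other 5 of each. CRE01314 reached 0.804 CPM (2 counts) in the third heat-selected library at 30 °C.

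CRE_PX356_5786 reached 0.390 CPM (2 counts) in the fifth ancestor library and 2.48 CPM (10 counts) in the fifth control-selected library at 20 °C, where its next highest value was 0.630 CPM. CRE01285, with 107 counts, was low at 20.1 CPM in the second control-selected library at 20 °C, where the next lowest was 30.3 CPM. None of these libraries is one of the 2 ancestor batch B libraries at 30 °C.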

How the results depend on the processing

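Counts are members called of those tested, given without the share of all genes in each setting. They show how the calls depend on the processing, and nothing else is read from them. Larval effects are listed as ancestor, control-selected and heat-selected. DESeq2 as test gave 5, 2 and 3 for the larval effect with heated parents, 4 for the ancestor parental effect and 1 for the heat-selected minus ancestor difference in larval effect. DESeq2 size factors gave 0 (control-selected) and 2 (heat-selected) with heated parents. Batches A, C and E alone gave 9, 1 and 2 with unheated parents, and 0 in both selected populations with heated parents. Batches B, D and F alone gave 14 for the ancestor with unheated parents and 1 for the heat-selected minus ancestor difference. No batch term gave 7 for heat-selected larvae of unheated parents, 0 in both selected populations with heated parents and 16 for the ancestor parental effect, and ancestor batches by replicate number gave 2 there. No filter gave 1, 0 and 0 with heated parents, 2 for the ancestor parental effect and 1 for the heat-selected minus ancestor difference. Summing pairs gave 11, 3 and 1 with unheated parents and 0, 0 and 0 with heated parents, and 0 for parental effects and for population differences at 30 °C. Total-count scaling, which moved the median log2 fold change of all genes by up to 0.39, gave 17 (ancestor) and 7 (heat-selected) with unheated parents, 1 for the ancestor with heated parents, 2 and 4 for the ancestor and heat-selected parental effects and 1 for the control-selected interaction. Chosen after seeing the data, leaving out the batch B ancestor libraries at 30 °C gave 14 for the ancestor with unheated parents, 1 for the ancestor interaction, 1 for the control-selected minus ancestor difference, and 0 (control-selected) and 1 (heat-selected) against the ancestor at 30 °C. Leaving out the 4 libraries above 35% outside genes gave 7 for heat-selected larvae of unheated parents, 0, 0 and 0 with heated parents, 1 for the heat-selected parental effect, and 0 and 1 against the ancestor at 30 °C. The cause was not tested.

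Same-numbered libraries correlated from -0.07 to 0.835 over 18 pairs, 8 best with their own number, so the numbers are not taken as pairs. The replicate block gave 2 for heat-selected larvae of heated parents, 2 for the ancestor parental effect, and 1 (20 °C) and 4 (30 °C) for heat-selected minus ancestor. Leaving out single libraries gave 16 to 25, 8 to 10 and 9 to 11 with unheated parents, the 16 without the third ancestor library at 30 °C (batch B). It gave 0 to 2, 0 and 0 with heated parents, 0 to 3, 0 and 0 to 4 for parental effects, 0, 0 and 0 to 1 for interactions, 0 to 1 for the heat-selected minus ancestor difference, and 0 to 2, 0 to 1 and 0 to 1 for population differences at 30 °C. Over 806 single-gene values of 38 results, 637 kept their call, 169 lost it and 0 reversed. Members with few counts limit what can be seen.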
